A study of Mus musculus with 2 samples.

Results

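The genes described here encode the nuclear pore complex and the factors that carry cargo through it. They were taken from a table of protein-coding genes by symbol: the numbered Nup, Ipo, Xpo and Kpna genes, Xpot, Kpnb1, Tnpo1 to Tnpo3, Cse1l, Ran, Rangap1, Ranbp1 to Ranbp3, Rcc1 and the pore genes Ndc1, Pom121, Aaas, Seh1l, Sec13, Tpr, Rae1 and Ahctf1. The rule used no measured value and found 54 of the 15127 genes in the table: 26 nucleoporins, 23 transport receptors and adaptors and 5 genes of the Ran cycle. The series maps genome structure and nascent RNA together, and the poly(A) RNA libraries used here came from pSM44, a line of female mouse embryonic stem (ES) cells. It stems from a 129 × castaneous F1 cross, and a tetracycline-inducible promoter drives Xist, the RNA that silences an X chromosome, at its own locus on the 129 allele. Both libraries belonged to 1 group, grown in serum-free 2i/LIF medium with doxycycline at 2 μg/mL for 24 h. The labels do not say whether they came from separate cultures. The counts were 1 column for that group, so each gene has 1 value without replicate error, and no value measures a response to doxycycline or Xist. Each level pools both alleles of this line.

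The nuclear pore complex is a large ring-shaped channel through the nuclear envelope, built of repeated copies of proteins called nucleoporins. Scaffold nucleoporins form its rings, membrane nucleoporins anchor it, and nucleoporins with phenylalanine-glycine repeats fill the channel and bind passing receptors. Importins and exportins, relatives of importin beta, carry proteins and RNA through it, and the small GTPase Ran, bound to GTP in the nucleus and to GDP in the cytoplasm, gives transport its direction. In pluripotent cells the importin alpha adaptors are known for bringing transcription factors such as Oct4 into the nucleus.

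The table summed to 10017978 counts and listed no gene at 0, so shares of genes are of those with at least 1 count. Of 8 embryonic stem cell markers 7 were listed, from 312 CPM (counts scaled to a table total of 1000000) for Klf4 to 4716 CPM for Dppa5a. Sox2, the other marker, was not listed, and its whole annotated span lay under other genes. Markers of neuroectoderm, mesoderm, endoderm, trophoblast and feeder fibroblasts gave 12 listed genes of 16, from 0.200 to 26.7 CPM, the highest being Thy1, and together 732 counts. Foxa2 (0.200 CPM), Mesp1 and Elf5 (both 0.299 CPM) were near 0, and the fibroblast markers Col3a1 and Dcn were not listed. The neuroectoderm markers Sox1 and Tubb3 were not listed either, and as their whole spans lay under other genes, that lineage rests on Pax6 (6.19 CPM).

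Nearly every pore and transport gene in the table was expressed, most of them within a few-fold of each other. Of the 54 members, 53 were at 1 CPM or more, against 80.1% of all listed genes, and the same 53 were at 10 CPM or more, against 58.9%. At 100 CPM or more there were 42 members, against 15.5% of listed genes. Summed, the members took 1.10% of all counts (110284), with a 95% Clopper-Pearson interval of 1.09 to 1.11. Their median was 156 CPM against 18.3 CPM for all listed genes, a difference of 3.03 on the log2(CPM + 1) scale. It was 2.31 against genes at 1 CPM or more, and 2.61 per kilobase of exon. Within 2-fold of the members' median CPM lay 39 of the 54 members (72.2%), while 33.9% of the genes at 1 CPM or more lay that close to their own median. Per kilobase of exon (TPM, defined with the gene groups) 28 of the 54 (51.9%) lay within 2-fold of the members' median, against 33.4% of the genes at 1 CPM or more around theirs. Kpna7, an importin alpha gene known from oocytes, was the member under 1 CPM, with 1 count. Nup210l, a relative of Nup210, and the importin gene Ipo13 were next lowest by CPM, with 169 and 215 counts. These intervals, and all others given for counts and shares, cover the counting error of reads only, not replicate error. Amplified reads that carry no molecular identifier may repeat a molecule, so the intervals may be too narrow for molecules.

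**Figure D1:**
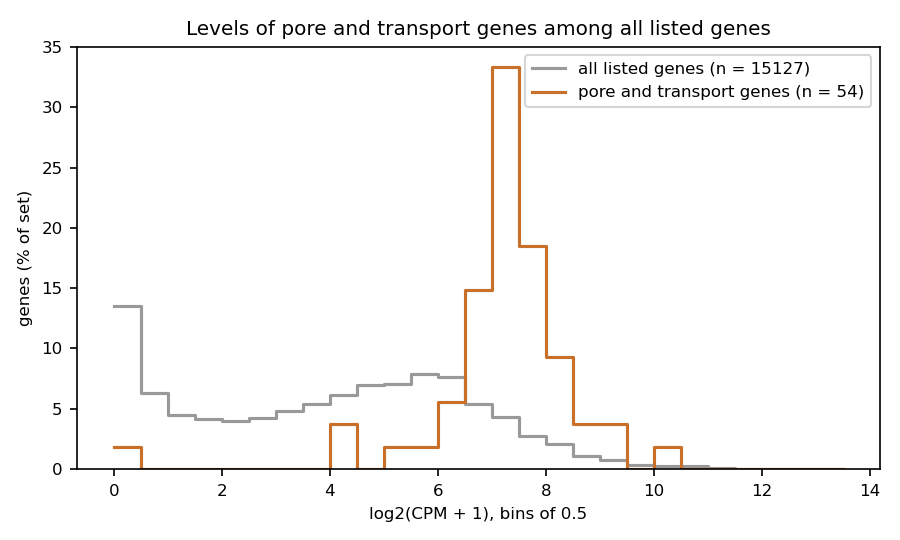
Share of genes (vertical axis, percent of the set) in bins of log2(CPM + 1) (horizontal axis), for all 15127 listed genes in grey and the 54 pore and transport genes in orange. From 6.5 to 8 on this scale lay 36 of the 54 members (66.7%) and 12.5% of all listed genes.

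The annotation used here, GENCODE M21 on GRCm38, holds 59 protein-coding genes that fit the same symbols, and the 5 that the table did not list shared a feature of position. Each lay with its whole span under other annotated genes. Nup62, which encodes the repeat-bearing protein at the centre of the channel (chromosome 7, 44816088 to 44830812, plus strand), had 98.0% of its span under same-strand genes. Il4i1, on the same strand, had the largest overlap with it. Nup133, a subunit of the Y-shaped scaffold complex (chromosome 8, 123897123 to 123949265, minus strand), lay inside Gm20388 on the other strand. Nup43, of the same complex (chromosome 10, 7667503 to 7678881, plus strand), lay inside Pcmt1 on the other strand and shared no exonic base with it. Seh1l, also of the Y complex (chromosome 18, 67774876 to 67795487, plus strand), lay inside the antisense gene 4930549G23Rik. The importin gene Ipo7 (chromosome 7, 110018274 to 110056609, plus strand) lay inside the antisense gene 1600010M07Rik, again with no exonic base shared. Among the overlapping genes named here Pcmt1 was listed with 660 counts and Il4i1 with 22, while the others were not listed.

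The same held for other genes of the annotation. Of 1349 protein-coding genes whose whole span lay under other genes, 74 were in the table (5.49%), against 7391 of 11794 with no base under another gene (62.7%). Partial overlap did not go with absence, as 7587 of 8849 genes with part of the span under other genes were listed (85.7%). Of the wholly covered genes with all covering genes on the other strand and no exonic base shared, 25 of 452 were listed (5.53%). The sources used here do not say how reads in overlapping genes were counted, so the 5 members are described as not listed and not as silent. Another 7 members had over 10% of their span under other genes, namely Ipo4 (65.2%), Nup188 (56.3%), Ranbp1 (40.7%), Nup35 (36.3%), Xpo4 (26.6%), Rcc1 (25.8%) and Tnpo2 (21.7%). By exonic bases Xpo7 (26.9%), Nup214 (25.2%), Ipo11 (17.2%), Pom121 (11.9%) and Kpnb1 (10.4%) also had over 10% under other genes. The part of this overlap in their counts was not tested.

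**Figure D2:**
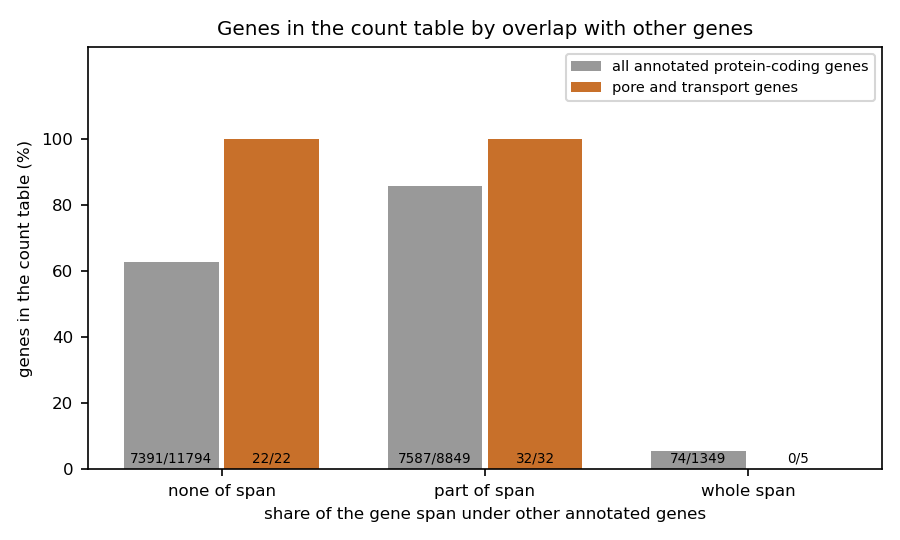
Percent of annotated protein-coding genes that were in the count table (vertical axis), by how much of the gene span lies under other annotated genes (horizontal axis), for all genes in grey and pore and transport genes in orange, with the numbers listed and annotated at the foot of each bar. All 22 members free of overlap and all 32 with part of their span covered were listed, and none of the 5 with the whole span covered.

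Levels of different genes are compared per length from here on. TPM stands for the count per kilobase of the union of a gene's annotated exons, scaled by its sum over all matched genes as CPM is by the total, and the median listed gene was at 11.9 TPM. Of the 54 members, 52 were above it, and Nup210l and Kpna7 were below.

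The listed scaffold genes of the pore were all above that median, from 2.46 times for Nup35 to 20.5 times for Nup93. Levels spanned a several-fold range inside each ring. In the Y complex, which forms the outer rings, Nup107 had the most, 2336 counts, or 190 TPM (Poisson 95% interval 183 to 198). Nup85 had 1604 counts (149 TPM) and Sec13, which also serves in vesicle coats, had 1461 (144 TPM), and their intervals overlap. With the longest coding transcript as length Sec13 was highest of the complex, at 225 TPM against 156 for Nup107. Nup37 with 641 counts (60.4 TPM, or 105 by the longest coding transcript), Nup160 with 1393 (49.8 TPM) and Ahctf1, which encodes the chromatin-binding subunit Elys, with 1493 (31.0 TPM) were lower. Nup107 was 3.82 times Nup160 per kilobase (95% interval from counts 3.57 to 4.08). The Y complex had the most genes that were not listed, 3 of 9.

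In the inner ring, Nup93, the scaffold protein that holds the ring together, had 3319 counts, or 244 TPM (236 to 253). Per kilobase of exon it stood highest of the listed nucleoporins, while Tpr had more counts (3395). Within the ring, Nup188 followed with 2966 counts (149 TPM, with 29.6% of its exonic bases under other genes) and its relative Nup205 with 2107 (71.0 TPM). Nup155 had 1465 counts (38.4 TPM) and Nup35, a membrane-binding subunit, had 315 (29.3 TPM). Nup93 was thus 8.33 times Nup35 per kilobase (7.42 to 9.38), or 5.61 times when the longest coding transcript gave the length. Nup35 is uncertain in both ratios. A gene elsewhere, Gm4353, matches it at 99.6% over 1547 bases, against 1559 for the longest coding transcript of Nup35. Other genes also cover 36.3% of the Nup35 span. The effect of either on the Nup35 count was not tested.

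Membrane nucleoporins were at moderate and similar levels apart from Nup210l. Ndc1, which spans the envelope and anchors the scaffold, had 953 counts (60.7 TPM), Pom121 had 1044 (58.7 TPM, or 39.0 by the longest coding transcript) and Nup210, the glycoprotein of the lumenal ring, had 1777 (53.2 TPM). The interval of Pom121 overlaps with those of both others. Nup210l had 169 counts, or 9.26 TPM (7.92 to 10.8), and 6.17 TPM by the longest coding transcript. Nup210 was 5.74 times as high per kilobase (4.90 to 6.76).

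Genes of the central channel were represented by Nup54, which encodes a repeat-bearing partner of Nup62, with 973 counts (91.7 TPM), and by Nup62cl. Nup62cl, a relative of Nup62 by name and the X-linked member of the set (chromosome X, 140006805 to 140062712, minus strand), had 1292 counts, or 181 TPM (172 to 191). It was 1.98 times Nup54 per kilobase (1.82 to 2.15) and 0.467 times per kilobase of gene span. No base of its span lay under another gene. Its annotated start lay 167 bases from that of Pih1h3b on the other strand, a gene with 1 count. As Nup62 was not listed, the levels of Nup62 and Nup62cl could not be set side by side.

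On the cytoplasmic face, where export complexes are taken apart, Rae1, an mRNA export factor that binds Nup98, had 1498 counts (184 TPM). Aaas, which encodes the protein Aladin, had 1560 (175 TPM), and these intervals overlap. Nup88 had 2568 counts, or 98.9 TPM, but 218 TPM by its longest coding transcript, since the union of its annotated exons is 8144 bases and that transcript 2453. Ranbp2, the protein of the cytoplasmic filaments, had 1468 counts (39.2 TPM) and Nup214, to which export receptors bind, had 659 (21.4 TPM). Nup98, which sits on both faces, had 2096 counts (52.1 TPM).

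The nuclear basket genes lay within 1.40-fold of each other per kilobase of exon, and further apart on other scales. Tpr, the coiled-coil protein that forms the basket's filaments, had 3395 counts (101 TPM). Nup50, a repeat-bearing protein that helps to free cargo from importin alpha, had 1340 (85.8 TPM) and Nup153, which anchors the basket, had 1617 (72.2 TPM).

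**Figure D3:**
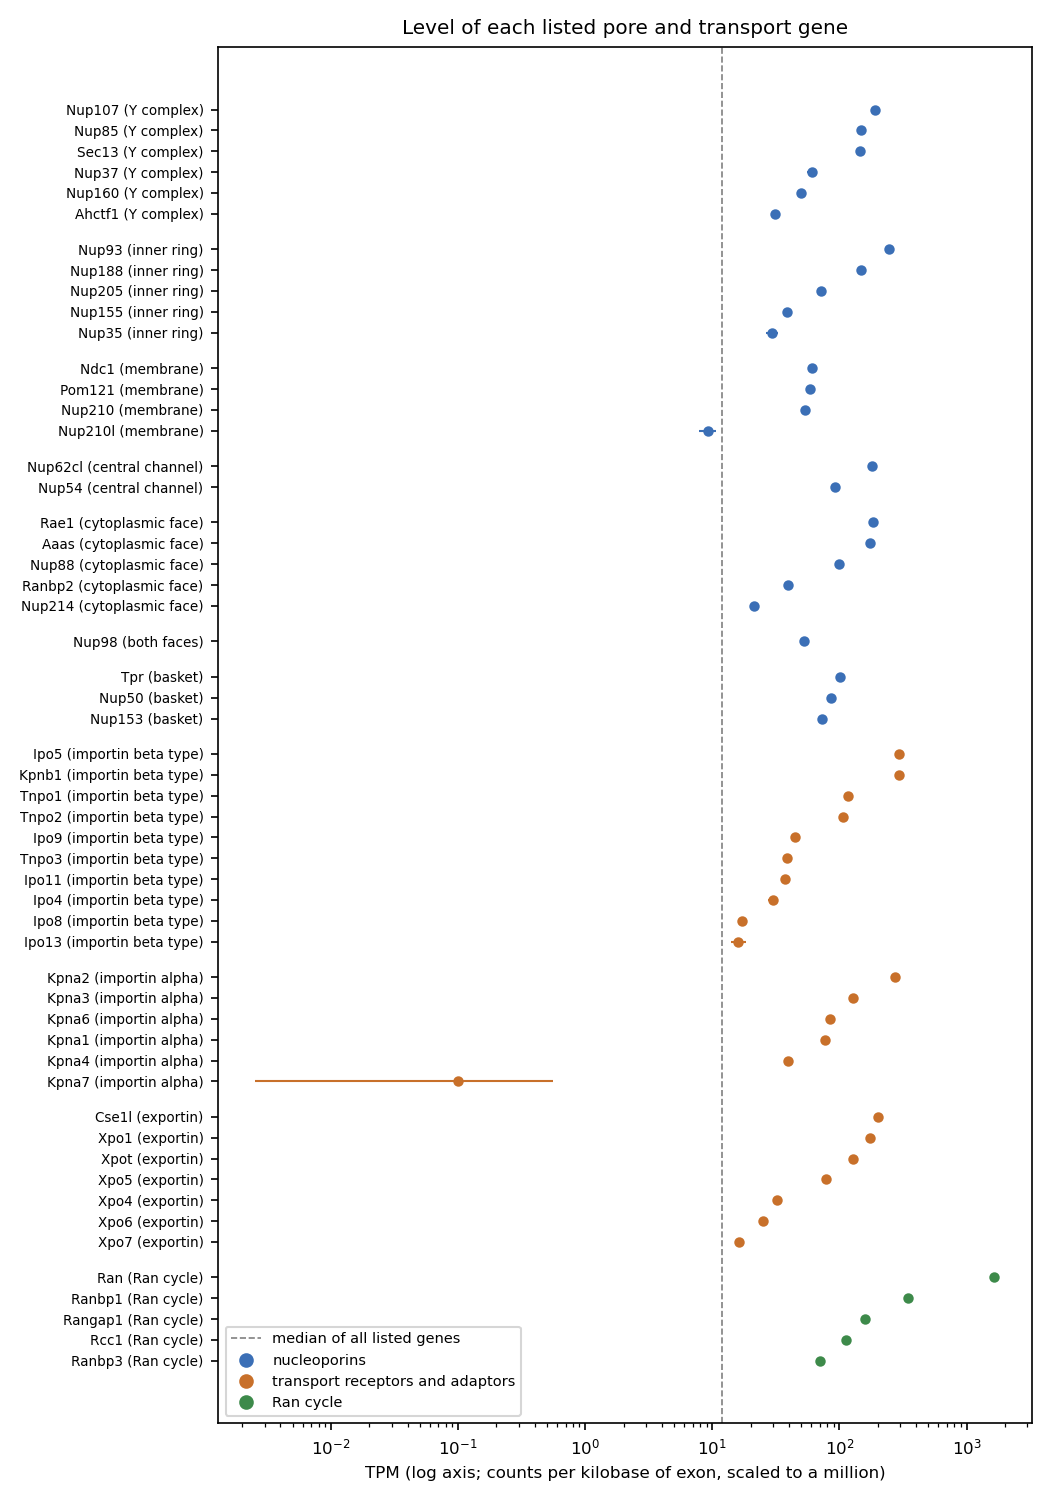
Level of each of the 54 listed genes in TPM on a log axis, grouped by role, with Poisson 95% intervals as bars (mostly narrower than the points) and the median of all listed genes as a dashed line. Ran stands apart at 1646 TPM and Kpna7 at 0.10 TPM, and the nucleoporins other than Nup210l run from 21.4 to 244 TPM.

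Among the importins of the beta type, Ipo5 and Kpnb1 stood well above the rest. Kpnb1, importin beta itself, the partner of importin alpha, had 6155 counts, or 293 TPM (286 to 300). Ipo5, which imports ribosomal proteins and histones, had 5663 counts, or 296 TPM (288 to 304). The ratio of Kpnb1 to Ipo5 was 0.990 per kilobase (0.954 to 1.03), an interval that includes 1, while it was 1.09 by counts and 0.833 by the longest coding transcript. Tnpo1 and Tnpo2, the transportins of RNA-binding proteins such as hnRNP A1, followed with 4179 and 2145 counts (117 and 107 TPM). Their ratio was 1.09 per kilobase (1.04 to 1.15), against 1.95 by counts and 0.461 per kilobase of gene span. Of the exonic bases of Tnpo2, 48.9% lay under other genes.

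The other beta-type importins were several-fold lower. Ipo9, an importer of histones, had 1174 counts (44.7 TPM) and Tnpo3, the importer of SR splicing factors, had 1626 (38.9 TPM, or 79.8 by the longest coding transcript). Ipo11 had 930 counts (37.0 TPM) and Ipo4 had 449 (30.1 TPM), the latter with 59.1% of its exonic bases under other genes. Ipo8, a relative of Ipo7, had 868 counts (17.2 TPM, or 33.8 by the longest coding transcript). Ipo13, which works in both directions, had 215 counts (16.0 TPM). Ipo5 and Kpnb1 together with Tnpo1 and Tnpo2 took the first places of the 10 listed importins on each length scale.

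Importin alpha genes encode the adaptors that bind the classical nuclear localization signal and hand cargo to importin beta. Kpna2 was highest, with 2520 counts, or 275 TPM (264 to 286). Kpna3 had 1743 counts (127 TPM), Kpna6 1815 (84.6 TPM), Kpna1 2069 (76.4 TPM) and Kpna4 1117 (39.2 TPM). Kpna7 had 1 count, or 0.10 TPM (0.00253 to 0.557). Kpna2 made up 45.6% of the family per kilobase and 27.2% by counts (Clopper-Pearson 95% interval 26.3 to 28.1), first on both scales. The order of the others depended on the scale: Kpna1 was second by counts with 22.3% of the family, but came after Kpna3 and Kpna6 per kilobase with 12.7%. Between the close relatives Kpna3 and Kpna4 the ratio was 3.25 per kilobase (3.01 to 3.50) and 3.38 by the longest coding transcript. It was 1.56 by counts and 1.25 per kilobase of gene span. Between Kpna1 and Kpna6 it was 0.904 per kilobase (0.848 to 0.963) but 1.14 by counts. The ratio of Kpna2 to Kpna7, a relative of the same subfamily, was 2520 by counts (452 to 99574).

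The value of Kpna2 carries a further limit, because the genome holds near-identical copies of its transcript. Gm10184 (chromosome 17, 89908462 to 89910449, minus strand), annotated as protein-coding, matches it over 1968 bases with 2 mismatches and no gap, and was listed with 41 counts. A further 4 annotated processed pseudogenes match at 95% identity or more over at least 300 bases. A stretch of the Kpna2 coding sequence (bases 666 to 725, counted from 1 at the start codon) is shown beside the same stretch of Gm10184, from the GENCODE transcripts. Capitals mark the difference in the stretch, A696G, and the other difference, C741T, lies outside it.
Kpna2: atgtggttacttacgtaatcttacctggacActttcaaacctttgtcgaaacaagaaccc
Gm10184: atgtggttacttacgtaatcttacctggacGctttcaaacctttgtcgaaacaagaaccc
Reads from most of the transcript therefore cannot be told apart between both genes, and Kpna2 is uncertain to the extent that such reads were dropped or shared in the authors' counting. Ran, Nup35, Nup54, Tnpo1, Xpo4 and Xpot each had 1 such match among annotated transcripts of genes elsewhere, and the remaining members had none. For Ran it was the pseudogene Gm13461 over 662 bases. For Nup35 it was the gene Gm4353, annotated as protein-coding, over 1547 bases, so the same limit holds for Nup35. Copies that are not annotated were not searched for.

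Exportins ran in a gradation from Cse1l down to Xpo7. Cse1l, which returns importin alpha to the cytoplasm, had 3382 counts, or 201 TPM (194 to 208). Xpo1, also called CRM1, the main exporter of proteins with leucine-rich export signals, had 3979 counts, or 174 TPM (168 to 179). Cse1l was the higher of the pair per kilobase and Xpo1 by counts, with a ratio of Xpo1 to Cse1l of 0.864 and 1.18. Xpot, the exporter of tRNA, had 2443 counts (127 TPM) and Xpo5, the exporter of microRNA precursors, had 1727 (78.9 TPM). Xpo4 had 1107 counts (32.3 TPM), Xpo6, which exports actin with profilin, 1351 (25.0 TPM, or 61.9 by the longest coding transcript) and Xpo7 976 (16.1 TPM). Cse1l and Xpo1 made up 30.7% and 26.6% of the exportins per kilobase.

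**Figure D4:**
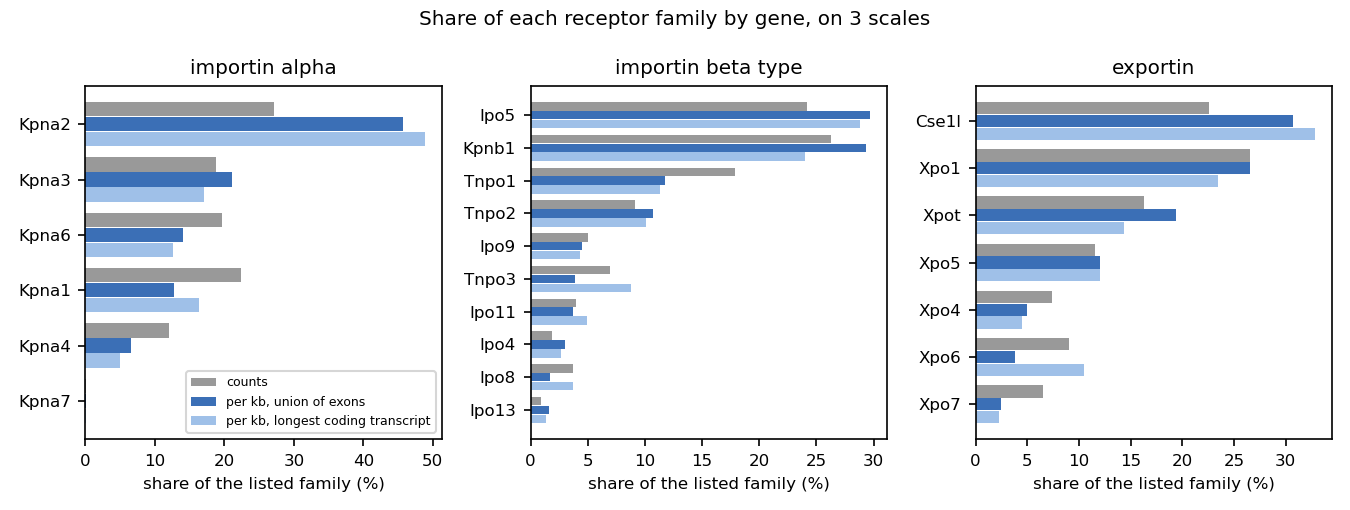
Share of each listed gene in its receptor family (horizontal axis, percent) for importin alpha, beta-type importins and exportins, by counts (grey), per kilobase of all exons (dark blue) and per kilobase of the longest coding transcript (light blue). Kpna2 leads importin alpha on each scale, with 27.2% by counts, 45.6% per kilobase of all exons and 48.9% by the longest coding transcript, while Xpo1 and Cse1l change places between counts and per-kilobase values.

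Genes of the Ran cycle had a median of 159 TPM, and Ran was the highest member by count, CPM and TPM. The group's median was the highest per kilobase of exon, but by the longest coding transcript that of the cytoplasmic face was higher, 179 against 170 TPM. Ran (chromosome 5, 129020069 to 129024323, plus strand) had 13892 counts, 1387 CPM (1364 to 1410) or 1646 TPM (1619 to 1673). It held 12.6% of all counts of the 54 genes, and ranked 64 by count among all listed genes. Ranbp1, which helps GTP hydrolysis on exported complexes, had 1842 counts (347 TPM), with 48.9% of its exonic bases under other genes. Rangap1, the cytoplasmic GTPase activator, had 2466 counts (159 TPM) and Rcc1, the chromatin-bound exchange factor, had 1372 (112 TPM). Ranbp3, a cofactor of Xpo1, had 1569 counts (70.7 TPM, or 127 by the longest coding transcript, above Rcc1 on that scale). Ran exceeded its activator Rangap1 10.4-fold per kilobase (9.92 to 10.8) and its exchange factor Rcc1 14.7-fold (13.9 to 15.6). By the longest coding transcript these folds were 7.05 and 9.72, and by counts 5.63 and 10.1. Rangap1 was 1.42 times Rcc1 per kilobase of exon (1.33 to 1.52), but 0.944 times per kilobase of gene span.

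The upstream sequences of a few genes are shown to set the highest member and the importin alpha gene with 2520 counts beside the importin alpha gene with 1 count. Each is the 250 bases before a RefSeq transcript start on GRCm38.p6, read 5′ to 3′ on the gene's strand: chr5:129019906-129020155 (plus) for Ran, chr11:106999526-106999775 (minus) for Kpna2 and chr5:145009637-145009886 (minus) for Kpna7. Capitals mark matches to the motifs named in the next paragraph.
Ran: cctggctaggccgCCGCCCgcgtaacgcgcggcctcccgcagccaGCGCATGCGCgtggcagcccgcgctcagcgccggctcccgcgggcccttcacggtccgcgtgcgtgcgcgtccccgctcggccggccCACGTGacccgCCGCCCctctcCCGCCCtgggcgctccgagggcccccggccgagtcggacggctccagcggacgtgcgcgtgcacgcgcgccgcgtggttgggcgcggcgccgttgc
Kpna2: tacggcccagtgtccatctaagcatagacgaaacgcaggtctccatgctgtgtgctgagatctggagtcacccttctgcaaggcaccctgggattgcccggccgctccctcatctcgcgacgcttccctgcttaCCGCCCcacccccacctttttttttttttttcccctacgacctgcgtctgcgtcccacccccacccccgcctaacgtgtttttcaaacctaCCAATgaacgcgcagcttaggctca
Kpna7: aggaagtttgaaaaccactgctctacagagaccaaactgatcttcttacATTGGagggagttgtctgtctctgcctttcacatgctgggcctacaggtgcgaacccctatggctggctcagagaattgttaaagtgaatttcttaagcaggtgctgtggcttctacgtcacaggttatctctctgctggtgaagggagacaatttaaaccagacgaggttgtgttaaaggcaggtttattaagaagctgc
The Ran window holds 49 CpG dinucleotides, the most of the members, and matches to the GC box, the E-box and the NRF1 motif. The Kpna2 window holds 16 CpG and matches to the GC box and CCAAT box, and the Kpna7 window 3 CpG, the fewest, and a CCAAT match. The RefSeq start lies 74394 bases inside the M21 span for Kpna7, so its window is not that of the M21 start. For Ran it lies 87 bases inside, so that the window includes the M21 start.

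Of the 54 members, 44 had such a window. Their median was 21 CpG against 16 for 9675 genes at 1 CPM or more, and 40 of the 44 had at least 10 (90.9% against 75.9%). The members below 10 were Ahctf1, Kpna7, Nup160 and Rcc1. The windows of Rcc1 and Rangap1, like that of Kpna7, are not those of the M21 start, from which they lie 7855 and 15611 bases away. The windows of Ahctf1, Ipo4 and Ndc1 do not include the M21 start either, as their RefSeq starts lie 335, 273 and 263 bases from it. Motifs were searched on both strands. The GC box (GGGCGG) was in 28 windows (63.6%, against 61.0% of genes at 1 CPM or more) and the CCAAT box (CCAAT) in 19 (43.2% against 37.0%). The ETS motif (CCGGAAG) was in 8 (18.2% against 13.9%) and the E-box (CACGTG) in 7 (15.9% against 8.67%). The NRF1 motif (GCATGCGC) was in 5 (11.4% against 4.66%), those of Ran, Ranbp1, Nup50, Nup107 and Xpo5. Its reverse complement (GCGCATGC) overlaps it, so that a site can match on both strands. The TATA box (TATAAA) was in 2 (4.55% against 6.02%). In the same order, the shares among all 11881 listed genes with a window were 56.1%, 36.5%, 12.3%, 8.17%, 3.98% and 6.97%. With 44 windows a share moves by over 2 percentage points with each gene, and these matches are a description, not binding sites.

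As genes, the members were built of many exons. The longest coding transcript had a median of 23 exons, against 9 for genes at 1 CPM or more, and 31 of the 54 members (57.4%, against 16.0%) had at least 20. Their union of exons had a median of 6263 bases, against 4508. Across the members the count had almost no relation to exon length (Spearman rho 0.04), while TPM was lower in longer genes (rho -0.53). These are descriptions across genes of 1 column, and TPM holds the length in its denominator. The 54 genes lay on 16 chromosomes, at most 6 on any of them (chromosome 2).

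The medians of the pore genes and of the receptors lay close together, and the receptors covered a wider range. The 26 listed nucleoporins had a median of 71.6 TPM and the 23 receptors and adaptors 76.4 TPM, a difference of -0.09 on the log2(TPM + 1) scale. Within 2-fold of their group's median lay 14 of the 26 nucleoporins (53.8%) and 10 of the 23 receptors (43.5%), against 33.4% of the genes at 1 CPM or more around theirs. From lower to upper quartile the nucleoporins ran from 50.4 to 147 TPM and the receptors from 31.2 to 127 TPM. The nucleoporin genes in this comparison lack the 4 that were not listed, and the receptors, like the beta-type importins among them, lack Ipo7. The 10 beta-type importins had a median of 41.8 TPM and the 7 exportins 78.9 TPM, a log2 difference of -0.90 that shrank to -0.24 with the longest coding transcript as length. In the order of all 54 by TPM, 39 of the 53 neighbouring pairs had overlapping Poisson intervals. These intervals alone do not settle the order within those pairs, and overlap does not show that a difference lies within counting error. Pairs whose intervals did not overlap included Ran and Ranbp1, Ranbp1 and Ipo5, Kpna2 and Nup93, Nup93 and Cse1l, and Nup210l and Kpna7.

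Other genes of the pathway that the symbols did not take in were mostly listed as well. Of 15 further pore and transport genes 12 were listed, all at 1 CPM or more, with a median of 54.0 TPM. Nutf2, which carries Ran back into the nucleus, was highest with 2958 counts (456 TPM). Ranbp6 was the lowest with 28 counts (1.92 TPM). Nupl1, the partner of Nup62 and Nup54 in the channel, was not listed, with 87.9% of its span under other genes. Rangrf was not listed either (69.7%), and nor was Ranbp3l, whose span no gene covers. None of these spans was wholly covered, and most partly covered genes of the annotation were listed.

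Of 21 mRNA export genes all were listed, 20 of them reached 1 CPM, and the median was 44.4 TPM. The helicase gene Ddx39b had 2729 counts (226 TPM), Nxt1, the partner of the export receptor Nxf1, had 706 (198 TPM) and the adaptor gene Alyref had 1716 (140 TPM). Alyref2 was lowest with 10 counts (2.46 TPM). All 15 nuclear envelope genes were listed and above 1 CPM, with a median of 60.1 TPM and a wider range than the pore. Banf1, a chromatin-binding partner of the lamina, had 3234 counts (678 TPM), Lmnb1, the B-type lamin, had 4485 (475 TPM) and Emd, which encodes emerin, had 2438 (304 TPM). Syne1, which encodes a giant linker protein, was lowest per kilobase with 169 counts (1.31 TPM).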

How the data were processed

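Poly(A) RNA of 2 libraries of 1 group was sequenced, and the authors deposited 1 column of raw counts for protein-coding gene symbols, from 1 to 117610, with a total of 10017978. The submitters' processing notes name GRCm38.p6 and the tools Trimmomatic 0.38, HISAT2, Subread 1.6.4 with featureCounts, and SAMtools. Not given in the sources used here are the annotation release, the strand setting, the use of multi-mapping reads and whether the column pools both libraries.

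Counts were scaled to CPM by the total, and to TPM with exon lengths of GENCODE M21. By symbol 14896 genes matched and by RefSeq synonym 156 more, while 75 with 0.131% of the counts did not. Log values used a pseudocount of 1, and 1 CPM took 11 counts. A gene counted as nearly free of overlap with at most 10% of its exonic bases under another gene. Intervals are exact Poisson, Clopper-Pearson or, for ratios of counts, exact binomial, at 95%. For medians over genes they come from order statistics. Transcript copies were searched with BLAST 2.17.0 (95% identity, 300 bases). Promoter windows are RefSeq's most upstream start per gene. With 1 column no test between samples was possible. Functions were tested on simulated data. The members and lists were chosen with earlier results of these data known. All members may be named, and of other lists the 3 highest per kilobase, the lowest and those not listed. Some of these are not reported here. Comparisons of named pairs of genes, and the copy and promoter searches, were chosen after values were seen. Alternatives were other minimums, pseudocounts, lengths, totals and overlap filters. Python 3.11.15, numpy 2.4.6, pandas 2.3.3, scipy 1.17.1 and matplotlib 3.10.9 were used.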

Additional observations from a re-analysis of the deposited data

How the results depend on the processing

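Each statement rests on 1 column of counts, so replicate error is unknown, and genes under other genes or with near-identical copies are uncertain. The 53 members at 1 CPM or more stayed 53 under each of 4 other minimums or totals. The members' share of counts was 1.19% of the total without the 20 highest genes and 1.07% among genes nearly free of exonic overlap. The members' median exceeded that of listed genes under all 6 alternatives, by 2.61 per kilobase of exon, 2.31 among genes at 1 CPM or more, 2.43 per kilobase of gene span and 5.38 with unlisted annotated genes at 0 on the log2 scale. The nucleoporin median minus the receptor median turned from -0.09 to 0.0486 with unlisted members at 0, which adds 4 nucleoporins and 1 receptor, and stayed below 0 under 7 other settings. The importin median minus the exportin median stayed below 0 under 5 settings. Unlisted members at 0 was not among them, although the importin Ipo7 was not listed. An interval of the importin median from order statistics over genes, with the exportin median held fixed, gave -2.13 to 1.88. For nucleoporins, with the receptor median held fixed, it was -0.54 to 0.90. Both include 0, so the sign of neither difference is settled. Kpna2 held 27.2% of importin alpha by counts, 48.9% by the longest coding transcript and 62.2% by gene span. Settings by gene span or longest coding transcript (except the planned one for Kpna2), span overlap and unlisted genes at 0 were added after the data were seen. Leaving out a replicate was not run, because the counts had 1 column. No paired analysis was possible because there was 1 group.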
